A study of Mus musculus with 24 samples.

Results

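The genes described here encode proteins of the contractile apparatus of myofibroblasts, or a secreted factor that accompanies it, in mouse embryonic fibroblasts (MEFs). They are Acta2 (smooth muscle alpha-actin), Tagln (transgelin, also called SM22-alpha, an actin-binding protein), Acta1 (skeletal muscle alpha-actin), Des (desmin, the intermediate filament protein of muscle) and Ctgf (connective tissue growth factor, now named Ccn2). Members were the genes whose symbol in the authors' deposited tables was 1 of these, with every reporter listed for them. This gave 5 of 4414 genes that could be named and 17 of 132488 reporters, a reporter being 1 oligonucleotide probe on the array. Those tables list a reporter where the authors called it changed in a knockout comparison. The counts and medians over the 17 reporters in both knockout comparisons, and in the difference between them, were therefore partly fixed by how the reporters were chosen. They are given as descriptions, and nothing is read from them against all reporters. The comparisons of controls or of knockouts between backgrounds reuse the same samples, so this holds for their counts too. By RefSeq the 5 genes lie on mouse chromosomes 19 (Acta2), 9 (Tagln), 8 (Acta1), 1 (Des) and 10 (Ctgf).

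A fibroblast that turns into a myofibroblast assembles actin stress fibres and starts to transcribe smooth muscle genes, with Acta2 as the textbook marker. The transcription factor SRF and its actin-regulated coactivators of the MRTF family switch on many of these genes through an element called the CArG box, and transforming growth factor beta is the classical inducer. Ctgf is a secreted matricellular protein of the CCN family and a standard readout of the coactivators YAP and TAZ, which act through TEAD factors. Transformation of fibroblasts by oncogenic Ras is known from textbooks to come with loss of stress fibres.

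The study asked which genes depend on E4F1, a zinc finger protein, in cells that lack p53. RNA was hybridised to 12 two-colour arrays, 24 samples in all. The 4 groups were p53-/-, Ha-RasV12, E4F1 -/- MEFs (Ha-RasV12 knockout), p53-/-, Ha-RasV12, E4F1 +/- MEFs (Ha-RasV12 control), p53-/-, E4F1 -/- MEFs (p53-/- knockout) and p53-/-, E4F1 +/- MEFs (p53-/- control). Each group had 3 independent biological replicates, called A, B and C, measured once with each dye. All cells came from 13.5-day embryos of a mixed C57BL/6 and 129Sv/J background, all lacked p53, and all were infected with a retrovirus that encodes a self-excising CRE recombinase 3 days before harvest. The controls therefore carried CRE too, and had lost 1 of their 2 E4f1 alleles. Ha-RasV12 was introduced with a second retrovirus, and only into the transformed background, so that oncogene and second infection cannot be told apart. Knockout and control RNA of the same replicate shared an array, and the arrays of each pair were dye-swapped. Values below are log2 signals averaged over the 2 dyes of a replicate, or differences of such signals.

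Some facts of the whole data set bear on what follows. The leading reporter of E4f1, which here and below means the reporter with the highest mean signal of a gene, differed by -1.99 between Ha-RasV12 knockouts and their controls (limma, adjusted p = 0.000438), and by -1.28 between p53-/- knockouts and controls (limma, adjusted p = 0.0759). Only 3 of 6 Ha-RasV12 knockout samples and 2 of 6 p53-/- knockout samples were above background there, so both sizes are uncertain. Another of the 6 E4f1 reporters, BC071228P02294, fell in both backgrounds (limma, adjusted p = 0.000125 in Ha-RasV12 and 0.0269 in p53-/- MEFs), in p53-/- knockouts by at least 1.85-fold. The 5000 random-sequence control probes had a 95th percentile between 6.24 and 7.13 log2 over the samples, which is taken here as the upper edge of background. Replicate A of the Ha-RasV12 controls stood apart: its mean correlation with the other replicates of its group was 0.946, against 0.966 to 0.983 for the other 11 biological samples. Its summed linear signal of 3 epithelial markers was 18982, against 3130 and 2682 in the other Ha-RasV12 control replicates. The log2 ratios of the dye-swapped arrays correlated over reporters with r = 0.39 to 0.62 within Ha-RasV12 replicates, and with r = -0.07 to 0.02 within p53-/- replicates. RNA of mixed cultures cannot show whether fewer cells expressed a gene or each cell held less of its RNA.

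The promoters of Acta2, Acta1 and Des are shown because these were the members with a promoter sequence available. None was available for Tagln and Ctgf. Acta2 and Acta1 rose in Ha-RasV12 knockouts, while Des was near background in the transformed cells, so whether it changed there is not known. The windows are therefore no contrast of genes that rose with genes that did not. They are the 250 bases before the annotated start, from RefSeq on build GRCm38.p6, 5′ to 3′ on the gene's own strand. Capitals mark CArG-like elements, meaning CC and GG around a middle of A and T bases in which up to 1 G or C was allowed, and the sequence CATTCC on either strand, which is the core bound by TEAD factors.
Acta2, chr19:34255374-34255623, minus strand: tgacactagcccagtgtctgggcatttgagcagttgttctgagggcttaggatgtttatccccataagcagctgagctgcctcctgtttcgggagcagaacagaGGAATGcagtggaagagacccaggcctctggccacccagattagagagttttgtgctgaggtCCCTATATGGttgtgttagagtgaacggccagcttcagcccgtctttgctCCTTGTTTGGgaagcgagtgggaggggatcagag
Acta1, chr8:123894776-123895025, minus strand: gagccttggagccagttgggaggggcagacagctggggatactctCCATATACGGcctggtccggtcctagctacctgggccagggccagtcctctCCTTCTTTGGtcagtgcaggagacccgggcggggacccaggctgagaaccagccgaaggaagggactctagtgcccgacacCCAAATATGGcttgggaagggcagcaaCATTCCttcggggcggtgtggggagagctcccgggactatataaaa
Des, chr1:75360042-75360291, plus strand: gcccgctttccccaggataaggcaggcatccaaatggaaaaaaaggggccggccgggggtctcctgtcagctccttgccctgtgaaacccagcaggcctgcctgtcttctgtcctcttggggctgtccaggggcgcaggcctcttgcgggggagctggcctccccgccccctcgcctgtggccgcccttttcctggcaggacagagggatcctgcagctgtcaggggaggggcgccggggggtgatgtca
A CArG box with no G or C in its middle was found in the Acta1 window, at positions -73 to -64 relative to the start, and in 1.47% of all 32851 windows of this length. The looser form was found at 3 places in Acta1, the strict one included, at 2 places in Acta2, and in 8.59% of all windows. CATTCC was found once in Acta1 and once, on the other strand, in Acta2, and in 12.6% of all windows. The Des window held neither element. TGACGT, on either strand, was in none of the 3 windows and in 6.47% of all windows. No motif searched overlapped another, apart from the strict CArG box, which is a case of the looser one. These matches describe letters in a window and show no binding.

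In Ha-RasV12 MEFs, loss of E4F1 was accompanied by higher signals of Acta2, Tagln, Ctgf and Acta1. In all, 14 of the 17 reporters rose and none fell, where 1.44% of all 132488 reporters rose, a comparison conditioned on the listing described above (limma on within-array ratios, Benjamini-Hochberg adjusted p under 0.05). The 3 reporters that did not pass were those of Des. Every one of the 14 was higher in the knockout on 6 of 6 arrays. The median log2 difference was 1.95 over the 17 reporters and -0.01 over all reporters.

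Acta2, the actin that defines stress fibres of myofibroblasts, had log2 signals of 14.40, 15.11 and 15.32 in the Ha-RasV12 knockout replicates A, B and C, against 11.43, 12.78 and 12.42 in the Ha-RasV12 controls (reporter BC064800P00644). The groups did not overlap, and the lowest control was replicate A. The mean was 14.94 ± 0.48 in knockouts and 12.21 ± 0.70 in controls (SD, n = 3 each). The difference of 2.73 (SE 0.17; limma, adjusted p = 9.85e-05) is a 6.65-fold higher signal. The other reporters of the same transcript, BC064800P00236 and BC064800P01197, differed by 2.65 and 2.56.

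A second transcript record that the authors' tables name Acta2, AK080187, was also higher in Ha-RasV12 knockouts. Its reporter P00066 had 8.16, 9.31 and 10.11 in knockouts, against 7.00, 7.88 and 7.61 in controls, a difference of 1.70 (SE 0.24; limma, adjusted p = 0.00728). Its reporter P00410 differed by 1.28 (SE 0.25; limma, adjusted p = 0.031), and only 4 of its 6 Ha-RasV12 control samples were above the background edge. The difference was thus smaller at both AK080187 reporters than at the 3 BC064800 reporters, a contrast that was not tested. One more AK080187 reporter, P00689, which the authors' tables do not list and which is not among the 17, differed by 0.30 and did not pass (limma, adjusted p = 0.476). Only 1 of its 6 Ha-RasV12 control samples and 4 of its 6 Ha-RasV12 knockout samples were above the background edge. Whether its signal changed in the transformed cells is therefore not known.

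Tagln, which binds and stabilises actin filaments, behaved like Acta2. Its leading reporter BC003795P00243 had 14.54, 14.62 and 14.33 in Ha-RasV12 knockouts, against 11.10, 12.09 and 11.84 in Ha-RasV12 controls. The knockout replicates had an SD of 0.15 and all lay above every control. The difference was 2.82 (SE 0.20; limma, adjusted p = 0.000191), a 7.07-fold higher signal, and the 2 other reporters gave 2.69 and 2.75.

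Ctgf, the secreted CCN protein, had 12.86, 12.66 and 12.56 in Ha-RasV12 knockouts, against 10.22, 11.06 and 10.66 in Ha-RasV12 controls (reporter BC006783P01385). The difference of 2.05 (SE 0.26; limma, adjusted p = 0.00452) is a 4.13-fold higher signal. All replicates of the knockout were above all replicates of the control, and the 2 other reporters gave 1.86 and 1.96.

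Acta1 is the actin of skeletal muscle fibres. Its leading reporter BC014877P00845 had 9.05, 7.70 and 7.98 in knockouts, against 7.77, 7.06 and 6.45 in controls, so that the groups overlapped, while within each replicate the knockout was higher by 1.27, 0.63 and 1.52. The difference was 1.14 (SE 0.19; limma, adjusted p = 0.0147). The reporter BC014877P01216 gave 1.95 (SE 0.16; limma, adjusted p = 0.000449) and BC014877P00041 gave 1.68. For these 2, only 3 and 2 of the 6 Ha-RasV12 control samples were above the background edge.

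Des, the muscle intermediate filament protein, was not well above background in the transformed cells. Its leading reporter BC031760P01053 had 5.84, 6.20 and 5.63 in Ha-RasV12 knockouts, against 6.09, 5.87 and 5.93 in Ha-RasV12 controls, and 0 of 6 samples of either group exceeded the background edge. No fold is given, since neither group was measured above background.

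**Figure D1:**
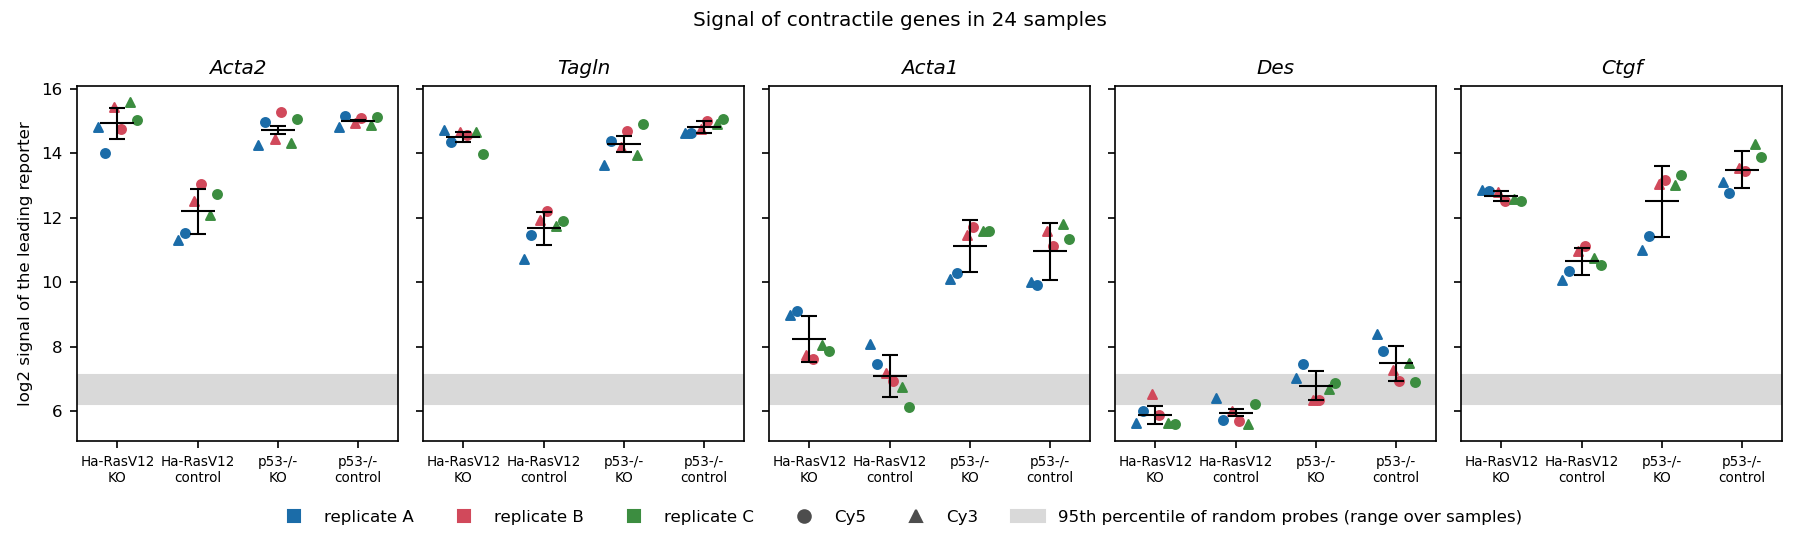
Log2 signal (y axis) of the leading reporter of each gene in the 24 samples, by group (x axis). Points are samples, coloured by replicate and shaped by dye, black bars are the mean ± SD of 3 replicates, and the grey band is the range over samples of the 95th percentile of random control probes (6.24 to 7.13). Acta2, Tagln and Ctgf are lowest in the Ha-RasV12 controls, Acta1 is low in both Ha-RasV12 groups, and Des is at background in both.

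Part of these calls depended on how the values were fitted. Without the replicate block, which changes the pooled spread as well as the pairing, 7 of the 17 reporters passed in place of 14. The leading reporters of Ctgf (limma, adjusted p = 0.0527) and Acta1 (limma, adjusted p = 0.596) were no longer among them. With the pairing kept and the Ha-RasV12 ratios fitted alone, 8 of the 17 passed. The same leading reporters of Ctgf (limma, adjusted p = 0.0597) and Acta1 (limma, adjusted p = 0.212) did not. The part of pairing by itself was not tested. Without replicate A, whose control stood apart, the count stayed at 14, and the differences were 2.61 for Acta2, 2.51 for Tagln, 1.76 for Ctgf and 1.08 for Acta1 (limma, adjusted p from 3.24e-05 to 0.0222). Without replicate C, Acta1 differed by 0.95 and did not pass (limma, adjusted p = 0.0824). The authors' deposited limma table lists 14 of the 17 reporters as higher, with log2 fold changes of 1.14 to 2.82, and so do their SAM tables, which the choice of reporters from these tables fixed in advance. As background, these tables list 2.17% (limma), 2.22% (SAM, 1% setting) and 4.22% (SAM, 5% setting) of all reporters as higher, from which nothing is read.

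In p53-/- MEFs without the oncogene, no reporter of Acta2, Tagln, Acta1, Des or Ctgf was called after loss of E4F1. Of the 17, 0 passed the test, where 0.0211% of all reporters did (limma, adjusted p under 0.05). Over all reporters, 28 passed and 3947 had an unadjusted p under 0.05. The median log2 difference of the 17 was -0.48, and that of all reporters was 0. With any 1 replicate pair left out, no reporter on the array passed.

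Ctgf had 11.23, 13.12 and 13.17 in p53-/- knockouts, against 12.94, 13.50 and 14.08 in p53-/- controls. The groups overlapped, yet the knockout was lower on 6 of 6 arrays, with differences of -1.70, -0.38 and -0.91 within replicates A, B and C. The mean difference of -1.0 (SE 0.26; limma, adjusted p = 1.0) did not pass, and without replicate A it was -0.64. Replicate A was the lowest of both groups for Ctgf, and also for Acta1.

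Des was measurable in these cells. Its reporter BC031760P00718 had 7.44, 6.05 and 6.46 in p53-/- knockouts, against 8.43, 7.21 and 7.40 in p53-/- controls, with 3 of 6 and 5 of 6 samples above the background edge. It was lower in the knockout on 6 of 6 arrays. The mean difference of -1.03 (SE 0.16; limma, adjusted p = 0.191) did not pass. The leading reporter differed by -0.69 and the remaining one by -0.74. The authors' deposited limma table, whose fold changes equal the mean over all 6 arrays, lists 2 Des reporters (-1.03 and -0.69, adjusted p = 0.000796 and 0.0283) and 1 Ctgf reporter (-1.0, adjusted p = 0.0446) as lower in p53-/- knockouts, where it lists 0.25% of all reporters as lower. The authors' deposited SAM tables list 4 of the 17 as lower at their 1% setting, 2 of Des and 2 of Ctgf, and 7 at their 5% setting, 3 of Des, 3 of Ctgf and 1 of Acta2. These tables list 0.282% and 0.442% of all reporters as lower in p53-/- knockouts. The settings are those the tables are named for, and their q-values in this comparison reach 0.0937 and 0.151.

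Tagln and Acta2 were bright in both p53-/- groups. Tagln had 14.01, 14.45 and 14.43 in p53-/- knockouts, against 14.63, 14.88 and 14.99 in p53-/- controls, with groups that did not overlap and a difference of -0.54 (SE 0.20; limma, adjusted p = 1.0). At this leading reporter the difference was -0.10 on the arrays with the knockout in Cy5 and -0.97 on those with it in Cy3. The other Tagln reporters were lower in the knockout on 6 of 6 arrays and did not pass. In the same order of dyes, BC003795P00926 gave -0.38 and -0.32, and BC003795P00063 gave -0.35 and -0.61. Acta2 had 14.62, 14.86 and 14.70 in knockouts, against 15.00, 15.03 and 15.01 in controls, a difference of -0.29 (limma, adjusted p = 1.0). At the BC064800 reporters of Acta2 the sign went with the dye. The leading one was on average 0.22 higher in the knockout on the arrays with the knockout in Cy5, and 0.79 lower on those with the knockout in Cy3. The listed AK080187 reporters were on average lower with either dye and did not pass. In the same order of dyes, P00066 gave -0.47 and -0.18, and P00410 gave -0.41 and -0.79. Signals of both genes were close to the brightest reporter of a sample, which ranged from 15.20 to 16.34, in both p53-/- groups and in Ha-RasV12 knockouts, where Acta2 reached 15.59. The part of saturation in them was not tested.

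Acta1 had 10.20, 11.60 and 11.60 in p53-/- knockouts, against 9.97, 11.37 and 11.58 in p53-/- controls, a difference of 0.16 (SE 0.19; limma, adjusted p = 1.0).

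**Figure D2:**
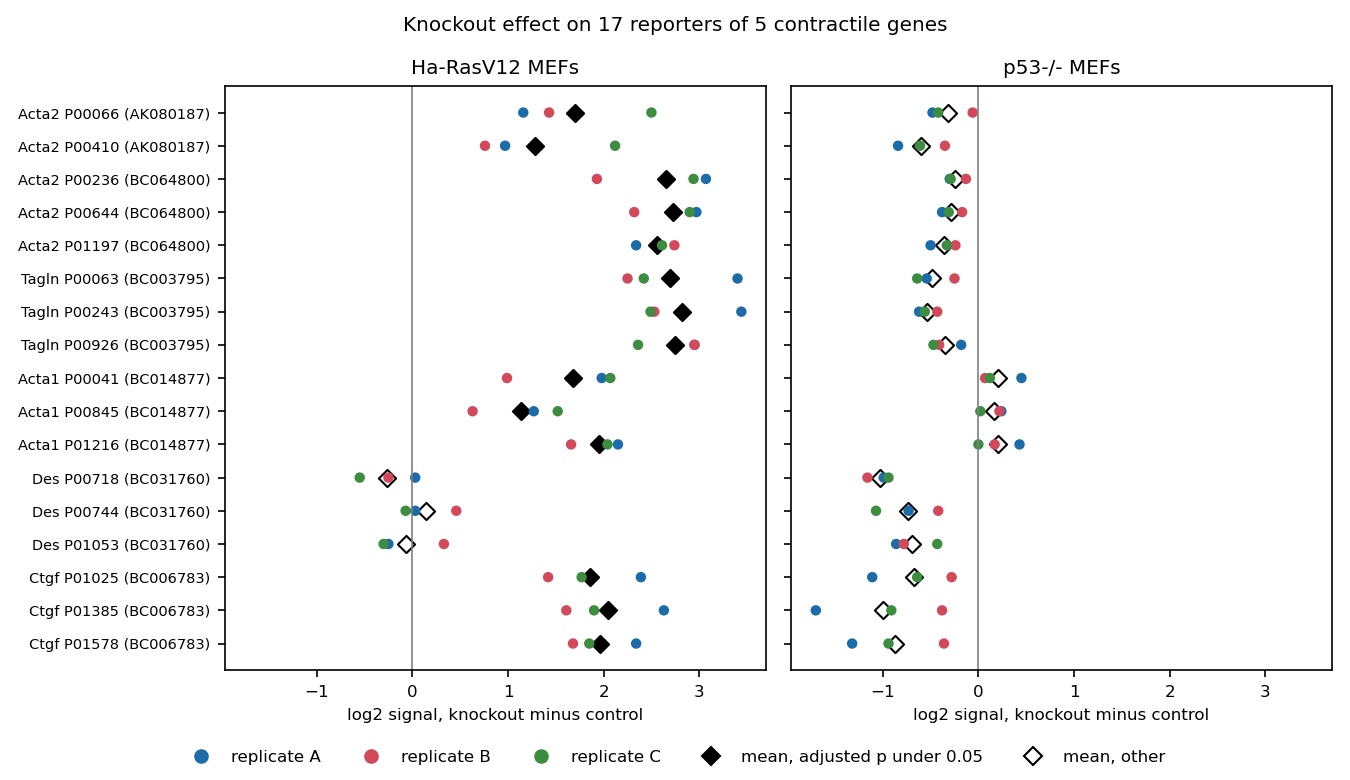
Log2 signal of knockout minus control (x axis) for each of the 17 reporters (y axis) in Ha-RasV12 MEFs (left) and p53-/- MEFs (right). Coloured points are the 3 replicates, each the mean of its 2 dye-swapped arrays, and diamonds are their mean, filled where the adjusted p is under 0.05. In Ha-RasV12 MEFs the 14 reporters of Acta2, Tagln, Acta1 and Ctgf lie between 1.14 and 2.82, and in p53-/- MEFs no diamond is filled.

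The difference between backgrounds was tested directly, as the knockout effect in Ha-RasV12 MEFs minus that in p53-/- MEFs. It was positive and past the threshold at 11 of the 17 reporters, with 0.306% of all reporters as background from which nothing is read, since the listing used both knockout comparisons (limma, adjusted p under 0.05). The unlisted Acta2 reporter AK080187P00689, near background in the transformed cells, differed by 0.65 and did not pass (limma, adjusted p = 0.424). Tagln differed by 3.36 (SE 0.28; limma, adjusted p = 0.00175), Ctgf by 3.04 (SE 0.37; limma, adjusted p = 0.0103) and Acta2 by 3.02 (SE 0.24; limma, adjusted p = 0.00137). Acta1 passed at 1 of 3 reporters, with 1.75 for BC014877P01216 (limma, adjusted p = 0.0142) and 0.98 for the leading one (limma, adjusted p = 0.234). Des passed at none. For Ctgf the call was lost without any 1 of the p53-/- replicates A, B and C, or without Ha-RasV12 replicate C (limma, adjusted p from 0.0534 to 0.101), with differences of 2.69 to 3.35. It was also lost without the replicate block (3.04; limma, adjusted p = 0.131). Without that block 6 of the 17 reporters passed, and without 1 replicate pair between 4 and 14 did.

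The transformed background itself had far less of these transcripts. In Ha-RasV12 controls against p53-/- controls, all 17 reporters were lower (limma on 12 biological samples, adjusted p under 0.05). As background, 2.71% of all reporters were called lower, from which nothing is read. Both control groups also entered the knockout comparisons behind the listing, so the count is not independent of how the reporters were chosen. These groups shared no array, and over all reporters the median difference was -0.13 log2. Acta1 had the largest difference among the leading reporters, with 7.10 ± 0.66 in Ha-RasV12 controls and 10.97 ± 0.88 in p53-/- controls (SD, n = 3 each), a difference of -3.88 (SE 0.51; limma, adjusted p = 0.000626). Tagln differed by -3.16 (SE 0.25; limma, adjusted p = 1.52e-05), Ctgf by -2.86 (SE 0.44; limma, adjusted p = 0.00225) and Acta2 by -2.80 (SE 0.31; limma, adjusted p = 0.000184). The other BC064800 reporters of Acta2 gave -3.01 and -3.17, the listed AK080187 reporters -4.69 and -4.32, and the unlisted one -2.19, differences between reporters that were not tested. The unlisted one was near background in Ha-RasV12 controls, so its size is uncertain. Des was lower by at least 1.94-fold at its leading reporter, a bound set by the background edge in Ha-RasV12 controls (limma, adjusted p = 0.00903).

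All 17 calls held when columns were centred on their medians or quantile normalized. Centring changed the split over all reporters, with 2654 higher and 2606 lower in place of 1339 higher and 3587 lower. Without replicate A of the Ha-RasV12 controls, 17 of 17 remained lower, and the count over all reporters was 8933 in place of 4926.

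Set side by side, the Ha-RasV12 and p53-/- knockouts were not called different at the leading reporters of Tagln, Acta2 and Ctgf, a comparison added after the values were seen. A test that misses the threshold does not show equal levels, and for Acta2 and Tagln the signals in both groups were near the brightest of the arrays. Ha-RasV12 knockouts minus p53-/- knockouts gave 0.20 for Tagln (SE 0.25), 0.22 for Acta2 (SE 0.31) and 0.19 for Ctgf (SE 0.44), none past the threshold (limma, adjusted p from 0.728 to 0.869). All 3 signs turned when only the Cy5 samples were used, at -0.37, -0.50 and -0.02. Acta1 did not reach that level: it was 8.24 ± 0.71 in Ha-RasV12 knockouts and 11.13 ± 0.81 in p53-/- knockouts (SD, n = 3 each), a difference of -2.89 (SE 0.51; limma, adjusted p = 0.00645). The listed AK080187 reporters of Acta2 were also lower, at -2.67 and -2.44, as was the unlisted one, near background in Ha-RasV12 knockouts, at -1.54. The 2 listed ones and the 3 Acta1 reporters were the 5 of 17 called, all lower, where 2.45% of all reporters were. The comparison shares its samples with those above and is no separate evidence.

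Across the 12 biological samples, the leading reporters of Tagln and Acta2 followed each other most closely among the members (Pearson r = 0.97), Tagln and Ctgf had r = 0.92, and Des correlated with the others at r = 0.41 to 0.65. The points fall into groups that share background and genotype, so these values describe the 4 groups more than the single cultures. Among the leading reporters of 3754 named genes, the most like Tagln were Igfbp7 (r = 0.973), Acta2 (0.973) and Tmem22 (0.97). Besides Tagln, those most like Acta2 were Hoxb6 (r = 0.946) and Igfbp7 (0.944). Igfbp7, a secreted protein that binds insulin-like growth factors, averaged 13.71 in Ha-RasV12 knockouts, against 10.34 in Ha-RasV12 controls, and 14.40 in p53-/- knockouts, against 14.91 in p53-/- controls. Ctgf was most like Plk2 (r = 0.957), a polo-like kinase, then Atic (0.93) and Adamts6 (0.921). Acta1 was most like Wbscr17 and Ccnyl1 (0.977 each) and Nrp1 (0.976), which averaged 10.40 in Ha-RasV12 knockouts, against 9.49 in Ha-RasV12 controls, and 12.50 in p53-/- knockouts, against 12.52 in p53-/- controls. Des was most like Kazn (0.951), Foxp1 (0.948) and Myom1 (0.942), the last a protein of the muscle sarcomere.

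Related genes were read from lists, by the leading reporter of each gene that could be named. Most nameable genes were so because the authors' tables list them, which favours genes that changed: among all 4414, 540 rose and 314 fell in Ha-RasV12 knockouts, 19.3% in all, with a median difference of 0.22. In Ha-RasV12 controls compared with p53-/- controls, 214 of the 4414 were higher and 361 lower, 13% in all, with a median of -0.10. In p53-/- knockouts 0.159% of the 4414 were called, and in the test between backgrounds 3.69%. Counts in the lists are therefore given as description only.

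A list of 41 contractile and adhesion genes tied to SRF and MRTF also held regulator genes, such as Srf and Mkl1. Of the 41, 16 could be named, and 5 of these rose and none fell in Ha-RasV12 knockouts, with a median difference of 0.78. Myl9, the regulatory light chain of smooth muscle myosin, had 13.76 in Ha-RasV12 knockouts, against 11.68 in Ha-RasV12 controls, a difference of 2.08 (SE 0.34; limma, adjusted p = 0.0148). Tpm4, a tropomyosin, rose by 0.95, Flnc, an actin crosslinker, by 0.90, Tln1, which ties integrins to actin, by 0.90, and Cnn2, a calponin, by 0.84 (limma, adjusted p from 0.0235 to 0.0451). The caveolar protein gene Cav1 differed by -0.99 and did not pass (limma, adjusted p = 0.246). In Ha-RasV12 controls against p53-/- controls, 8 of the 16 were lower and none higher, among them Myl9 (-3.01), Fhl2 (-1.69), Tgfb1i1 (-1.53), Actn1 (-1.45), Tpm1 (-1.31), and Cnn2 and Flnc (-1.20 each). No gene of this list passed in p53-/- knockouts or in the test between backgrounds.

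Of 24 genes of the transforming growth factor beta pathway, 8 could be named, and 1 of these rose and none fell in Ha-RasV12 knockouts, with a median difference of 0.60. Bambi, a decoy receptor, rose by 0.96 (SE 0.14; limma, adjusted p = 0.0099), and also passed in the test between backgrounds, at 1.20. The nuclear mediators Smad3 and Smad4 differed by 0.59 and 0.40 and the inhibitor Smad7 by 0.68, none past the threshold. Smad6 went the other way, at -0.72, and did not pass either (limma, adjusted p = 0.0941). In Ha-RasV12 controls against p53-/- controls, the ligand gene Tgfb3 (-1.62) was lower.

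Of 20 targets and partners of YAP and TEAD, 10 could be named, and 5 rose in Ha-RasV12 knockouts while none fell. Ankrd1, a muscle ankyrin repeat protein, had the largest difference of this list at 3.58, with a wide error (SE 0.72; limma, adjusted p = 0.0374). Cyr61, a CCN protein, rose by 1.66, Nuak2, a kinase, by 1.5, and Amotl2 and Axl by 1.16 each. The TEAD factors themselves, Tead1 to Tead4, differed by 0.75, 0.40, -0.32 and -0.65, and none passed. Amotl2 (-1.66) and Cyr61 (-1.02) were lower in Ha-RasV12 controls than in p53-/- controls.

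Of the 5 other genes of the CCN family, 4 could be named. Cyr61 (1.66) and Wisp1 (1.80; SE 0.22; limma, adjusted p = 0.0036) rose in Ha-RasV12 knockouts, as Ctgf did. Nov differed by -2.10 and did not pass (SE 0.67; limma, adjusted p = 0.175), and Wisp2 was near background in Ha-RasV12 knockouts and Ha-RasV12 controls, at 5.90 and 5.83. In Ha-RasV12 controls against p53-/- controls, Wisp1 (-3.72), Cyr61 (-1.02) and Wisp2, which was at 11.25 in p53-/- controls, were lower. Of 11 intermediate filament genes, the family of Des, 3 could be named and none passed in either knockout comparison. Nes, an intermediate filament of progenitor cells, and Nefl, a neurofilament, were higher in Ha-RasV12 controls than in p53-/- controls, Nes by 0.83. Nefl ranged from 8.54 to 13.47 over the Ha-RasV12 control replicates and averaged 5.82, near background, in p53-/- controls, so that its fold differs widely between replicates and is not given.

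**Figure D3:**
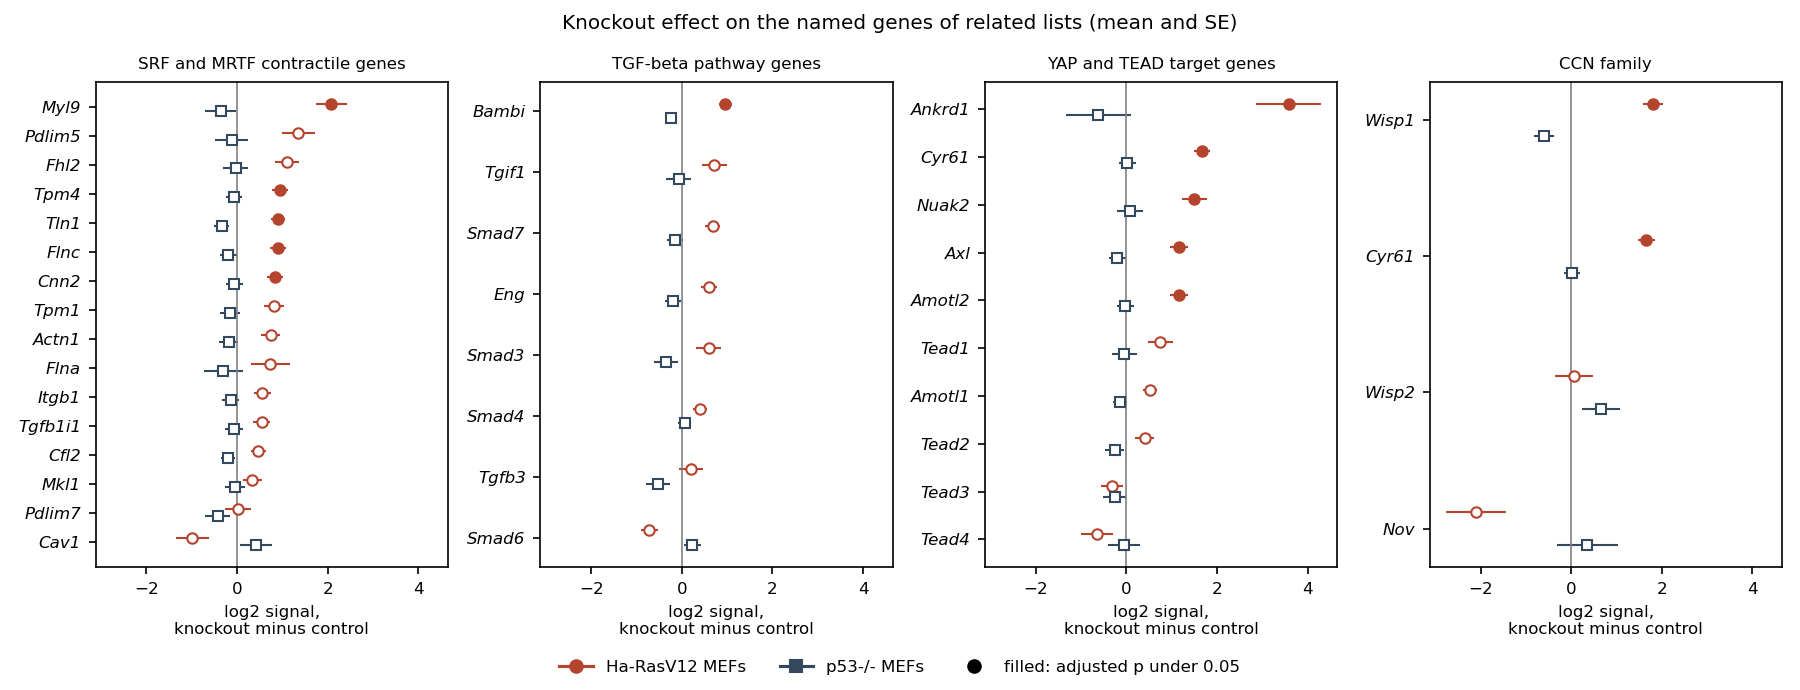
Log2 signal of knockout minus control (x axis, mean and SE) for the nameable genes (y axis) of 4 related lists, in Ha-RasV12 MEFs (circles) and p53-/- MEFs (squares), filled where the adjusted p is under 0.05. In Ha-RasV12 MEFs the filled circles run from 0.84 for Cnn2 to 3.58 for Ankrd1, and no square is filled.

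Markers of other cell types that a culture of embryonic fibroblasts could hold were read in the same way. Of 12 smooth muscle markers, 6 could be named, and none passed in Ha-RasV12 knockouts. Their differences ran from -0.14 for Kcnmb1 to 0.90 for Smtn (limma, adjusted p = 0.115 for Smtn). Smtn averaged 9.69 in Ha-RasV12 knockouts and 8.79 in Ha-RasV12 controls. Actg2, smooth muscle gamma-actin, differed by 0.13. Myh11, the smooth muscle myosin, was at 5.58 in Ha-RasV12 knockouts and 5.39 in Ha-RasV12 controls, within background. In Ha-RasV12 controls against p53-/- controls 3 were lower, with Actg2 at -3.09, Kcnmb1 at -2.08, and Myh11 lower by at least 4.61-fold. The summed linear signal of the 6 markers was 2298 to 2851 in Ha-RasV12 knockouts, 1790 to 2005 in Ha-RasV12 controls, 7362 to 9954 in p53-/- knockouts and 10987 to 13708 in p53-/- controls. The coding sequences of the muscle actins are much alike, and the part of cross-hybridisation between their reporters was not tested.

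Of 30 skeletal and cardiac muscle markers, 4 could be named. Acta1, which this list holds too, was the 1 that rose in Ha-RasV12 knockouts, while the sarcomere genes Myh3 and Neb were at 5.60 and 6.08 in Ha-RasV12 knockouts, and 5.75 and 6.31 in Ha-RasV12 controls, near background. The summed linear signal of the 4 genes was 498 to 875 in Ha-RasV12 knockouts, and 402, 566 and 5218 in Ha-RasV12 controls, the last being replicate A. The remaining gene, Chrna1, a subunit of the muscle acetylcholine receptor, was at 7.10 to 7.89 in Ha-RasV12 knockouts and 7.49 to 12.25 in Ha-RasV12 controls, a mean difference of -1.81 (limma, adjusted p = 0.206). Of 16 fibroblast markers, 10 could be named. In Ha-RasV12 knockouts the matrix genes Dcn (2.88) and Fn1 (1.66) rose, and S100a4 (-4.19), Fap (-2.41) and Col3a1 (-1.99) fell. Col3a1 averaged 12.99 in Ha-RasV12 knockouts, against 14.98 in Ha-RasV12 controls, so a fibroblast collagen was bright in both groups. Against p53-/- controls, the Ha-RasV12 controls were lower in the matrix genes Postn (-6.15), Col1a1 (-3.27), Col6a1 (-1.37) and Fn1 (-1.35).

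Among the markers of non-mesenchymal cells, Krt7 (1.53) and Epcam (0.86), 2 of 3 nameable epithelial genes, rose in Ha-RasV12 knockouts, as did Flt1 (1.08), the 1 nameable endothelial gene of 7. Krt7 was at 7.49 in Ha-RasV12 knockouts and at 5.95, near background, in Ha-RasV12 controls. The remaining epithelial gene, Krt19, was the other way, at 10.45 in Ha-RasV12 knockouts and 12.25 in Ha-RasV12 controls, a difference of -1.81 that did not pass (limma, adjusted p = 0.225). The summed epithelial signal was 1766 to 2971 in Ha-RasV12 knockouts, against 2682 to 18982 in Ha-RasV12 controls. Flt1 had a linear signal of 175 to 817 in Ha-RasV12 knockouts, against 106 to 274 in Ha-RasV12 controls. Neither of 2 nameable blood cell markers passed, and neither did Mcam, the 1 nameable pericyte marker of 7, at 0.81 (limma, adjusted p = 0.111). Mcam (-2.18) and Flt1 (-2.04) were lower in Ha-RasV12 controls than in p53-/- controls, and Epcam was higher by at least 3.15-fold. The part of these cell types in the results for the contractile genes was not tested.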

How the data were processed

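Deposited per-sample values were intensities on a linear scale, made by the authors from 12 two-colour arrays; background correction, normalization and scanner software are stated in no source used here. No sample column was left unused. The authors' deposited tables give log2 fold changes, moderated t and SAM scores, p-values and q-values; limma is named in the submitters' processing notes. The mean log2 ratio of the 6 arrays of a background equals the authors' deposited log2 fold change within 5.5e-06.

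Intensities were log2-transformed, with no filter or pseudocount. Knockout minus control was taken within each array, the 2 dye-swapped arrays of a replicate were averaged, and 6 replicate ratios were fitted with limma 3.58.1 in R 4.3.3 over 132488 reporters, without the 5000 random control probes. Backgrounds were compared between 12 biological samples in a second limma fit. P-values were adjusted with the Benjamini-Hochberg method at 0.05. The fits were also run on simulated data with 200 changed reporters and independent normal noise. That noise held no dye effect and no deviating replicate, so nothing is read from this run. Same-numbered knockout and control samples share their arrays, as the labels show; their deviations from the group means correlated at 0.59 to 0.63 in p53-/- and at -0.06 to 0.49 in Ha-RasV12 MEFs, and the array pairing is kept as a block. P-values of the knockout effects and of their difference rest on a spread pooled over the 6 ratios of both backgrounds. Those of the other comparisons rest on a spread pooled over the 12 biological samples. Both spreads were moderated across reporters by limma. The labels call the 3 replicates of a group independent, and the number of biological replicates limits the precision.

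Reporters were named through the symbol that the authors' tables give their transcript, else through RefSeq accessions (3641 and 773 genes); 115290 reporters remained unnamed. All listed member reporters are reported. List genes past the threshold are named, at most 6 per list and comparison by size of change, equal printed values together, with some that did not pass for contrast, chosen after their values were seen; up to 3 most similar genes are named per member by Pearson correlation. One gene of the transforming growth factor beta list was left out of every list result. Members and lists were chosen with earlier results of these data known. Alternatives were the block, dye, scaling, filter and replicate settings described at the end.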

Additional observations from a re-analysis of the deposited data

Results flagged for a closer look

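The knockout effect differed between the Ha-RasV12 and the p53-/- background, by the limma test of the difference, at 11 of the 17 reporters of the contractile genes. As Ha-RasV12 minus p53-/- log2 differences these were 3.36, 3.17 and 3.11 at the Tagln reporters, 3.02, 2.92, 2.88 and 2.02 at 4 Acta2 reporters, 3.04, 2.83 and 2.53 at the Ctgf reporters, and 1.75 at 1 Acta1 reporter. Among the list genes the same test called Bambi (1.20), Cyr61 (1.64), Wisp1 (2.41), Fn1 (2.13) and Flt1 (1.93) with a higher effect in Ha-RasV12 MEFs. Col3a1 (-2.34) and S100a4 (-4.76) were called with a lower one. As background, that test called 3.69% of the 4414 nameable genes. With 3 biological replicates per group, single outlying samples were not tested.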

How the results depend on the processing

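In Ha-RasV12 knockouts, Tagln and Acta2 remained called in 15 of 15 alternatives each, with differences of 2.51 to 2.99 and 2.50 to 2.94. Ctgf lost its call in 2 of 15, without the replicate block and with the background fitted alone (limma, adjusted p = 0.0527 and 0.0597), and Acta1 in 4 of 15 (range 0.87 to 1.68). In Ha-RasV12 against p53-/- controls, Tagln, Acta2, Acta1 and Ctgf remained called in 13 of 13, and Des in 12 of 13, with -1.35 in Cy5 samples only (limma, adjusted p = 0.0658). Signs turned for Acta2 in p53-/- knockouts in Cy5 only (0.22), for Des in Ha-RasV12 knockouts without 1 replicate (-0.28 to 0.04) and in Cy3 only (0.04), and for Ha-RasV12 knockouts against p53-/- knockouts in Cy5 samples (Tagln -0.37, Acta2 -0.50, Ctgf -0.02), with quantile normalization (Acta2 -0.11) and without 1 replicate (Ctgf -0.45, without p53-/- replicate A, to 0.52). The cause of these was not tested.

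In p53-/- knockouts the 28 became 173 with each array as a sample and a dye term, 183 with the background fitted alone, 20 without the dimmest reporters, 493, 503 and 949 in the authors' deposited limma, SAM 1% and SAM 5% tables, and 0 without any 1 replicate; among the 17 reporters these settings called 1, 1, 0, 3, 4, 7 and 0. The reporter called with the background fitted alone was BC031760P00718 of Des. In Ha-RasV12 knockouts the 3061 became 1038 without the replicate block (7 of the 17), 10984 with each array as a sample, 280 with the background fitted alone (8 of the 17), 4703 in the authors' limma table, 8601 in their SAM 5% table, and 1783 to 5858 without 1 replicate. For the difference between backgrounds the 568 became 137 without the replicate block (6 of the 17), 3862 with each array as a sample, and 57 to 2252 without 1 replicate (4 to 14 of the 17). For Ha-RasV12 against p53-/- controls the 4926 became 2230 in Cy5 samples and 2256 to 8933 without 1 replicate. For Ha-RasV12 against p53-/- knockouts, with alternatives chosen after seeing the data, the 4734 became 3025 in Cy3 samples and 1968 to 6526 without 1 replicate. Values near the random probes, as for Des in Ha-RasV12 MEFs, limit what a difference can show.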
